A study of Mus musculus with 8 samples.

Results

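The genes described here carry the name Zfp followed by a number, the mouse nomenclature for most zinc finger proteins. They were chosen by name and by read count, as the protein-coding genes of that name pattern, without Zfp36, that held at least 200 reads summed over 8 RNA sequencing libraries of mouse bone marrow-derived macrophages. By this rule 217 genes were chosen, of 364 protein-coding genes with such a name and of 54532 genes in all. Of the other genes with the name pattern, 113 held from 1 read to just under the minimum, and 34 held no read. The libraries fall into 4 groups of 2. Control cells were left without a stimulus. For the LPS group, lipopolysaccharide from bacterial membranes, a ligand of the receptor Tlr4, was added for 4 h at a concentration of 100 ng/ml. For the IL-4 group, interleukin 4, a type 2 cytokine, was added for 24 h at a concentration of 20 ng/ml. The last group, IL-4 then LPS, had both agents one after the other, IL-4 first (20 ng/ml, 24 h), then a wash, then LPS (100 ng/ml, 4 h). All cells came from bone marrow and were grown into macrophages, and no genetic change is named for any group. Strain, age and sex of the mice are not given in the sources used here. The reads of sex chromosome genes given below show that the libraries of a group, numbered 1 and 3, came from cells of different sex and so not from 1 animal. Whether libraries of the same number shared an animal is not given. The p-values measure the spread between these libraries, in which animal and sex cannot be told apart.

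Most Zfp proteins belong to the C2H2 class, in which a pair of cysteines and a pair of histidines hold a zinc ion and fold a short finger. Rows of such fingers, joined by a conserved linker, read DNA sequence. A large branch of these proteins also carries a KRAB domain, which binds the corepressor Trim28. Trim28 in turn brings the histone H3 lysine 9 methyltransferase Setdb1 and heterochromatin proteins to the bound site, and many KRAB proteins silence retroelements in this way. KRAB zinc finger genes arose by repeated local duplication and lie in clusters. Other Zfp proteins act outside this pathway, as transcription factors with few fingers, RNA-binding proteins or ubiquitin ligases. In macrophages LPS sets off a fast transcriptional programme through NF-kB and interferon regulatory factors, and IL-4 acts through Stat6.

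The libraries held 7924932 to 9431852 counts. Levels in CPM, the usual depth-scaled count, were scaled by factors of the trimmed mean of M-values (TMM), which ran from 1.17 to 1.25 without LPS and from 0.787 to 0.866 with LPS. Macrophage markers summed to 12600 to 25100 CPM. The 7 markers of T and NK cells summed to 1.99 to 32.6 CPM, with Cd3e, Cd3d, Cd3g, Cd8a and Ncr1 at 0 reads. The rest was Cd4, at 1.358 to 13.83 CPM, and Lck, at 0.1783 to 0.6338 CPM without LPS and 8.28 to 21.67 CPM with it. Those of neutrophils stood at 0.864 to 8.0 CPM, mostly from S100a8 (0.778 to 5.52 CPM), with Ly6g and Elane at 0. The 5 stromal markers summed to 3.95 to 5.88 CPM in the libraries without LPS and IL-4, 4.17 to 4.73 CPM after IL-4, 18.0 to 46.1 CPM after LPS and 24.3 to 43.8 CPM after IL-4 then LPS. Most of the sum with LPS was Pdgfrb, at 13.98 to 41.26 CPM with LPS and 0.4458 to 0.996 CPM without, whereas Col1a1, Col1a2, Pdgfra and Dcn stayed at 0.5184 to 2.981 CPM with LPS. The 5 dendritic cell markers summed to 0.996 to 1.96 CPM in libraries without LPS and to 6.62 to 11.9 CPM in those with it, mostly from Xcr1 (1.426 to 9.788 CPM with LPS) and Zbtb46 (0.4195 to 5.536 CPM), whereas Clec9a and Siglech stood at 0 to 0.69 CPM with LPS. Mast cell and basophil markers summed to 2.76 to 18.2 CPM, nearly all from Kit (2.346 to 18.21 CPM), with Mcpt8 and Fcer1a at 0. Nos2, Il1b and Tnf, genes induced by LPS, summed to 11.6 to 56.1 CPM without and 4810 to 7810 CPM with LPS, and 4 genes induced by IL-4 to 40.8 to 122 CPM without and 255 to 414 CPM with IL-4, as labelled. The part of cells other than macrophages in the results below was not tested. Xist was read in the 4 libraries numbered 1, at 330.1 to 438.0 CPM, and was at 0 in the 4 numbered 3, in which the Y-linked Ddx3y was read at 54.73 to 79.96 CPM, so the libraries of each group came from cells of different sex.

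The chosen genes were expressed at low levels. Their summed reads ran from 203 to 12388 with a median of 784. On the scale of RPKM, TMM-scaled reads per length of exons, the mean level over the 8 libraries had a median of 2.16, beside 5.28 for all genes tested and 6.99 for tested protein-coding genes with at least 200 reads. The 5 genes with the most reads per length were Zfp800 at 28.5 RPKM, Zfp207 at 25.8, Zfp710 at 25.5, Zfp263 at 24.5 and Zfp598 at 18.8. Just above the minimum lay Zfp763 with 203 reads, Zfp850 with 205 and Zfp707 with 206. Just below it were Zfp14 with 193 reads, Zfp759 with 197 and Zfp39 with 199. Because the reads were summed over all groups, a gene near the minimum could pass through the groups in which it was higher. All 217 passed the filter on low counts and entered the test.

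LPS against control asked how these genes answered the bacterial stimulus in cells without IL-4. After LPS 26 of the 217 were higher and 46 lower (12% and 21.2%; edgeR's quasi-likelihood test, adjusted p under 0.05 by Benjamini-Hochberg over 12234 genes). Of all genes tested 21.8% were called higher and 18.6% lower, and of the protein-coding genes with at least 200 reads 23.7% and 20.9%. With TMM scaling the share of lower genes thus lay near the background, whereas the share of higher genes lay below it. This difference was not tested. A fold of at least 2 was reached by 17 of the higher and 30 of the lower genes. The median log2 fold change was -0.33, against -0.01 for all genes tested and 0.0 for the protein-coding genes, and 154 of the 217 values were negative. In these bulk samples, less RNA per cell and fewer cells of a type cannot be told apart. The 70 tested Zfp genes below the minimum had a median of -0.84, with 2 called higher and 6 lower.

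The split depends on the scaling of the libraries. With library size alone, 10 of the 217 were higher and 139 lower after LPS, beside 12.7% and 47.0% of all genes tested. All genes tested moved to a median of -0.61. With upper-quartile factors the counts were 18 and 86, beside 16.7% and 29.0% of all genes, and the median of all genes was -0.28. Under both, the share of lower members lay above that of all genes, which was not tested. The gap between the chosen genes and all genes stayed at -0.31 to -0.32 under these 3 scalings. A change of scaling moves all genes by nearly the same amount, so this gap could hardly change. The 217 genes together took 0.476% to 0.515% of counts in control libraries and 0.342% to 0.356% after LPS, whereas their summed TMM-scaled level was 3989 to 4115 CPM in control and 4322 to 4347 CPM after LPS. With the replicate number, and with it the sex of the cells, as a term in the fit, 31 were higher and 70 lower, beside 28.2% and 25.5% of all genes tested. Without control replicate 1 the median was -0.37, beside -0.05 for all genes tested, and without control replicate 3 -0.39, beside -0.04. In both fits, which leave 1 control library, fewer members and a smaller share of all genes were called in each direction.

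**Figure D1:**
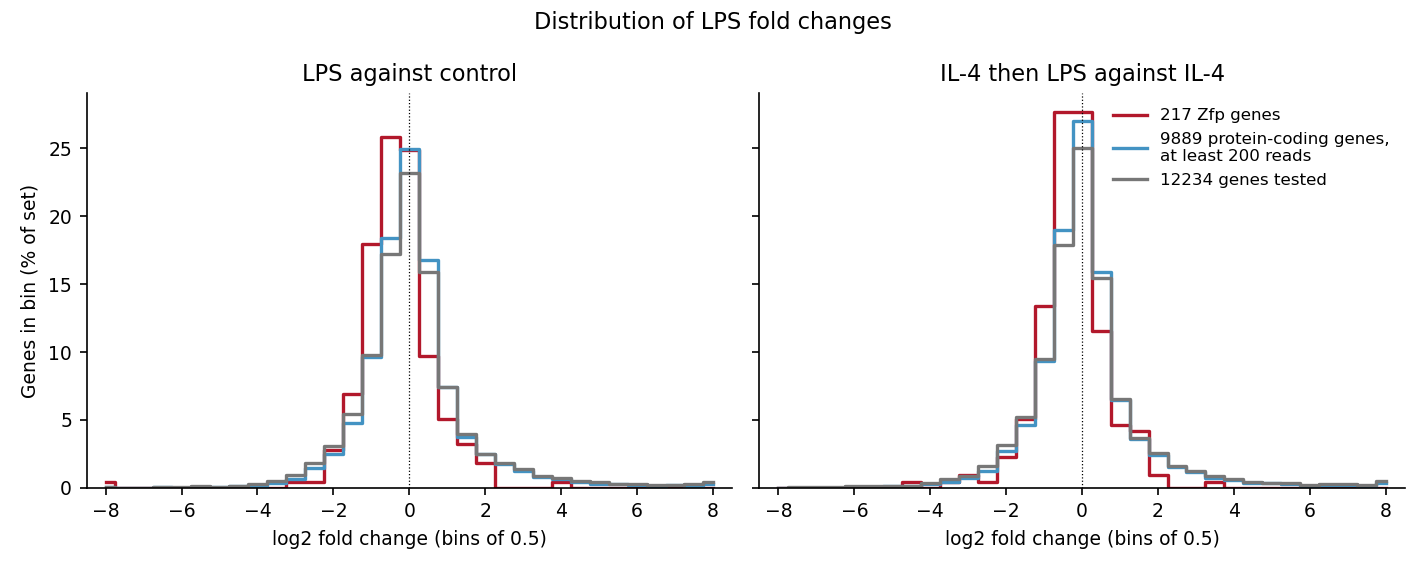
Distribution of log2 fold changes after LPS, in cells without IL-4 (left) and after IL-4 (right), as the percentage of each gene set per bin of 0.5, with values past 8 placed in the end bins. The 217 Zfp genes (red) are shifted to the left of all 12234 genes tested (grey) and of the 9889 protein-coding genes with at least 200 reads (blue), with medians of -0.33 against -0.01 and 0.0 on the left.

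The spread of the Zfp genes was lopsided. Their 90th percentile after LPS was 0.85, against 1.58 in the protein-coding genes with at least 200 reads, while the 10th percentiles were -1.27 and -1.26. A log2 fold change of 1 or more was found for 7.8% of the Zfp genes and 15.6% of those protein-coding genes, and one of -1 or less for 18.4% and 14.2%. The high arm of the response was thus thin, and few members stood out in it.

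Zfp800 (ENSMUSG00000039841, chromosome 6, 28239927 to 28398005, minus strand, mm10), a protein with 7 C2H2 patterns, was the member that rose most after LPS. It was at 22.3 and 17.2 CPM in control libraries 1 and 3, at 294.8 and 303.2 CPM after LPS, at 20.5 and 20.7 CPM after IL-4 and at 216.2 and 205.7 CPM after IL-4 then LPS. The groups with and without LPS did not overlap. The rise after LPS was 3.92 ± 0.16 on the log2 scale (SE; edgeR, adjusted p = 9.01e-06), a 15.1-fold increase, and per length it went from 4.09 to 61.9 RPKM, the highest of the 217 after LPS.

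Zfp281 (ENSMUSG00000041483, chromosome 1, 136624901 to 136630053, plus strand), which binds GC-rich DNA and is known for its part in the exit of stem cells from pluripotency, stood at 23.4 and 27.4 CPM in control and at 136.2 and 93.2 CPM after LPS. All LPS libraries lay above all control libraries, and the LPS replicates differed from each other more than those of Zfp800. Its log2 fold change was 2.17 ± 0.22 (SE, edgeR, adjusted p = 0.000173). Zfp319 (ENSMUSG00000046556, chromosome 8, 95323011 to 95331950, minus strand) went from 36.1 and 33.5 CPM to 132.6 and 130.7 CPM, a log2 fold change of 1.92 ± 0.14 (edgeR, adjusted p = 3.46e-05). Zfp324 (ENSMUSG00000004500, chromosome 7, 12965838 to 12974236, plus strand), a KRAB protein, went from 7.26 and 8.99 CPM to 32.2 and 41.8 CPM, a log2 fold change of 2.19 ± 0.23. Zfp263 (ENSMUSG00000022529, chromosome 16, 3744093 to 3750790, plus strand) had 54.3 and 71.6 CPM in control and 159.3 and 231.2 CPM after LPS. Replicate 3 of Zfp263 lay above replicate 1 in each of the 4 groups. Zfp513, whose human counterpart is linked to an inherited retinal disease, went from 18.0 and 21.1 CPM to 64.9 and 61.0 CPM, and Snx17, which overlaps it and held 6274 reads, cannot be told apart from it without strand information. The KRAB genes Zfp658 (log2 fold change 1.86) and Zfp382 (1.72), and Zfp697 (1.53) and Zfp628 (1.32) without a KRAB pattern, complete the 10 largest increases. Of these, the call of Zfp658 was lost without either control library (edgeR, adjusted p up to 0.0623). That of Zfp697, at 1.68 to 1.73 CPM in control, was lost without either control library, without LPS replicate 1 and with both other scalings (adjusted p up to 0.176).

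The largest decrease was that of Zfp395 (ENSMUSG00000034522, chromosome 14, 65358389 to 65398930, plus strand), whose human counterpart is known as a hypoxia-induced transcription factor. It held 447 reads in the control libraries and 1 read in the LPS libraries. In CPM this was 21.4 and 19.7 in control, 0.140 and 0 after LPS, 22.3 and 18.0 after IL-4, and 0.874 and 0.907 after IL-4 then LPS. The ratio of control to LPS was 296.7, with a 95% counting interval of 52.98 to 11740 (exact Clopper-Pearson on the conditional binomial, counting error only). Zfp704 (ENSMUSG00000040209, chromosome 3, 9427020 to 9610085, minus strand), a relative of Zfp395, fell from 92.5 and 73.7 CPM to 13.0 and 7.59 CPM, a log2 fold change of -3.01 ± 0.26 (SE, edgeR, adjusted p = 9.23e-05). Both related genes thus head the list of decreases, and in both the libraries with LPS lie far below those without it. Of the 50-base stretches of Zfp704 protein-coding transcripts, untranslated parts included, 17.8% also occur on either strand of another annotated gene. Part of its reads may thus be assigned uncertainly.

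Zfp652 (ENSMUSG00000075595, chromosome 11, 95712673 to 95835115, plus strand), a repressor that works with the corepressor Cbfa2t3, fell from 73.8 and 60.1 CPM to 18.9 and 14.2 CPM. Its log2 fold change was -2.02 ± 0.25 (edgeR, adjusted p = 0.000519), and the overlapping gene Abi3 held 259 reads. Zfp467, which favours fat cell over bone cell formation in marrow stroma, fell from 11.5 and 12.5 CPM to 3.08 and 3.04 CPM. Zfp398 fell by 2.43, Zfp760 by 2.22, Zfp810 by 2.14, Zfp41 by 2.08, Zfp472 by 1.94 and Zfp157 by 1.71 on the log2 scale, from control levels of 4.45 to 14.8 CPM. Of these 6 genes, Zfp760, Zfp810, Zfp472 and Zfp157 carry a KRAB pattern. The call of Zfp41 was lost without LPS replicate 3 (edgeR, adjusted p = 0.0835), and that of Zfp760 without control replicate 1 or LPS replicate 3 (up to 0.068). Every one of the 72 called genes moved the same way in libraries 1 and 3 and had groups that did not overlap. With 2 libraries per group a call nearly requires this, so it adds nothing to the calls. Of the 217, 157 had groups that did not overlap, 72.4% beside 72.6% of all genes tested, and 100 had an unadjusted p under 0.05, 46.1% beside 49.8%. Both shares lay near those of all genes.

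**Figure D2:**
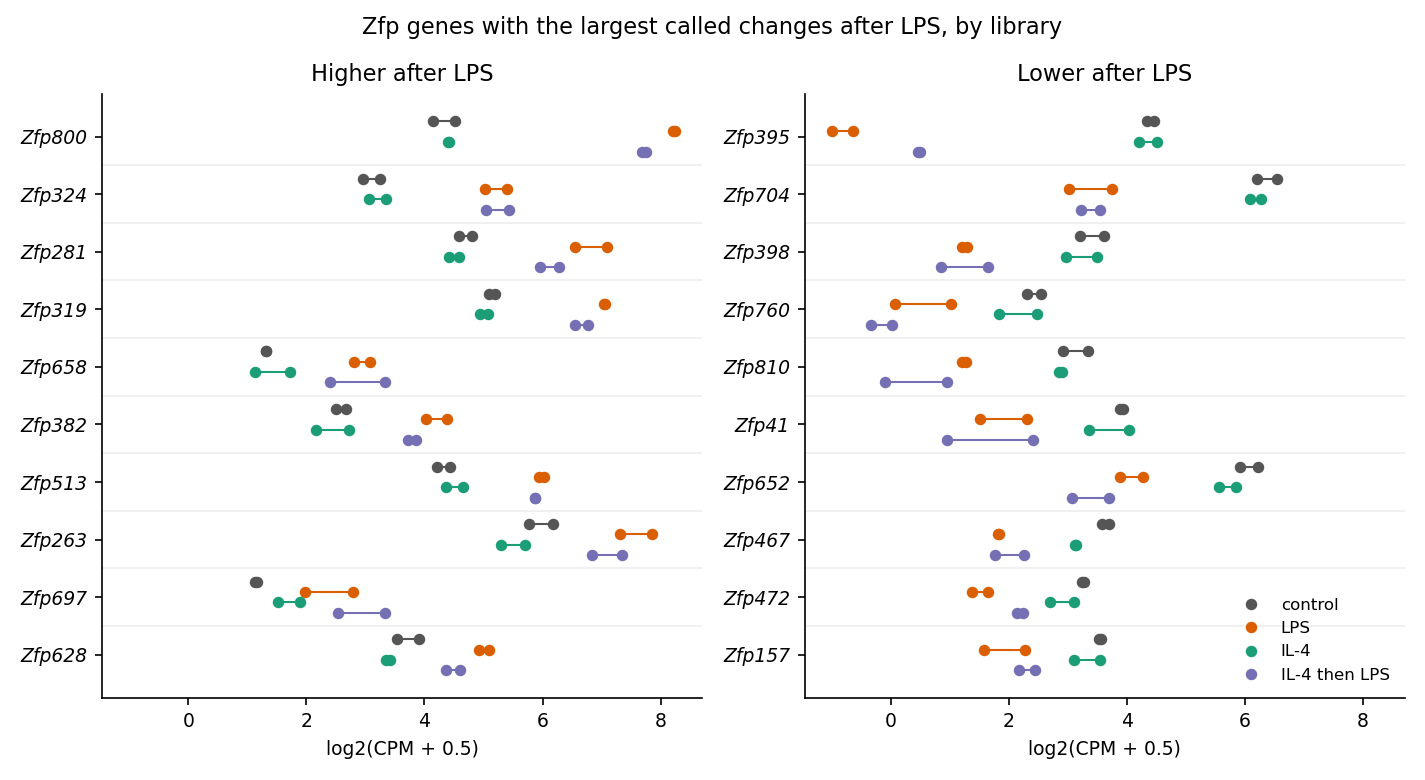
Level of the 10 Zfp genes with the largest called increases (left) and decreases (right) after LPS, as log2 of CPM plus 0.5, with 1 point per library and a line joining the libraries of a group. In Zfp800 the libraries with LPS lie at 205.7 to 303.2 CPM and those without at 17.2 to 22.3 CPM, and Zfp395 lies at 0 to 0.140 CPM after LPS alone and at 0.874 to 0.907 CPM after IL-4 then LPS.

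The start regions of these genes were compared with motifs of factors that act in stimulated macrophages. RefSeq (GRCm38.p6) gave a promoter of 300 bases, 250 before and 50 after the start, for 181 of the 217 genes, 220 promoters in all. The motifs were searched on both strands: NF-kB by name, ISRE as GAAANNGAAA, AP-1 as TGANTCA, CRE as TGACGTCA, STAT as TTCNNNGAA, ETS as CCGGAA, Sp1 as GGGCGG and the E-box as CACGTG. ETS and STAT letters can overlap. The promoters printed are those of 3 genes that rose, Zfp324, Zfp263 and Zfp281, and 3 that fell, Zfp760, Zfp472 and Zfp467, chosen to show ETS letters close to the start on both sides, a promoter with no match, and the match to NF-kB. They are written 5′ to 3′ on the gene's strand, with capitals marking matches to NF-kB, ISRE, AP-1, CRE, STAT or ETS.
Zfp324 (chr7:12965588-12965887, plus strand): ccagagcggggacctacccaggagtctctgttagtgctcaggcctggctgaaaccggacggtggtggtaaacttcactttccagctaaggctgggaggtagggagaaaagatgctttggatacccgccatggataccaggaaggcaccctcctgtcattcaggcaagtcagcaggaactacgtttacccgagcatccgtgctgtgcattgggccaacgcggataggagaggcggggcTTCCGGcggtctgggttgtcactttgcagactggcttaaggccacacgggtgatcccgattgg
Zfp263 (chr16:3743849-3744148, plus strand): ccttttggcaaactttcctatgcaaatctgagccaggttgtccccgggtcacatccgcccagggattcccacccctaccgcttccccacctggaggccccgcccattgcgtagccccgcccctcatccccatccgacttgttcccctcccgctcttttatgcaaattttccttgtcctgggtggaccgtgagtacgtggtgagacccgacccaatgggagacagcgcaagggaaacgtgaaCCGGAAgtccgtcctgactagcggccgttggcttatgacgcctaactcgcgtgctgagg
Zfp281 (chr1:136624651-136624950, plus strand): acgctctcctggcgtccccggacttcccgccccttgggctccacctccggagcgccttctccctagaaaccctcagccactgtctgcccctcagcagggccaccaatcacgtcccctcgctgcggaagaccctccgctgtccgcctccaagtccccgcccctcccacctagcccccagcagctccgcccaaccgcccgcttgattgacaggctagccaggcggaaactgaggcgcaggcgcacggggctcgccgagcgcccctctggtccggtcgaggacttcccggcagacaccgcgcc
Zfp760 (chr17:21707491-21707790, plus strand): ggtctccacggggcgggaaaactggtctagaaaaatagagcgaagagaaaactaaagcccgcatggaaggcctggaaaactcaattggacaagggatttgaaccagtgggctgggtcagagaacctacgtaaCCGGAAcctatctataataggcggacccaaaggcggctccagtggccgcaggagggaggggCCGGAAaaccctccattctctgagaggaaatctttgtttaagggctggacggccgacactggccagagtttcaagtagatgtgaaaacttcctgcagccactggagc
Zfp472 (chr17:32965581-32965880, plus strand): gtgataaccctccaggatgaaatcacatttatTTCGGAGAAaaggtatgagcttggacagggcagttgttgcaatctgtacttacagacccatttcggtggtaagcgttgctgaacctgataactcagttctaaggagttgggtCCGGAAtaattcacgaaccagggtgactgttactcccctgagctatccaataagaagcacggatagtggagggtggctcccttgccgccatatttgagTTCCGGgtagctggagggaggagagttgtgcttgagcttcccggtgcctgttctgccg
Zfp467 (chr6:48445041-48445340, minus strand): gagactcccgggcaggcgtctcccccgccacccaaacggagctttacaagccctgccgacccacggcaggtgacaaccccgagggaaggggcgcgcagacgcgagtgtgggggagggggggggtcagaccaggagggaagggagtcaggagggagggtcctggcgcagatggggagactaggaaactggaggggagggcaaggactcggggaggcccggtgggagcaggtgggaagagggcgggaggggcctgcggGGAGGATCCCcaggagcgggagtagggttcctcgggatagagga

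Counted from the start base as 0, the ETS letters begin at -13 in Zfp324, at -9 in Zfp263, at -118 and -57 in Zfp760 and at -106 and -8 in Zfp472. The STAT letters of Zfp472 begin at -218, and the NF-kB match of Zfp467, a gene that fell, begins at 6. Zfp281, among the genes that rose most, had none of the marked letters in this window and 27 CpG dinucleotides. ETS letters were found in 36.8% of the 220 promoters, in 29.6% of 10146 promoters of protein-coding genes with at least 200 reads, and in 14.9% of all 32851 promoters. The median number of CpG dinucleotides was 17 in the Zfp promoters, 21 in those of the protein-coding genes and 7 in all promoters. Among Zfp promoters the share with ETS letters was 18.8% of 32 in the genes called higher after LPS, 37.2% of 43 in those called lower and 40.7% of 145 in the rest. STAT letters were in 15% of Zfp promoters, 6.78% of those of the protein-coding genes and 8.3% of all. NF-kB matches were in 10.9%, 10.4% and 8.46% in the same order, and in 6.25% of the promoters of genes called higher. AP-1 letters were in 3.64%, 5.02% and 7.81%, and ISRE letters in 1.82%, 3.39% and 3.44%. The 32 promoters of genes that were higher held no ISRE, AP-1 or CRE letters, and the 43 of genes that were lower held no ISRE letters, 1 match to AP-1 and 3 to CRE. Sp1 letters were in 51.4%, 64.0% and 35.7%, CRE letters in 3.64%, 3.17% and 1.79%, and the E-box in 6.82%, 10.6% and 7.15%. These are matches of letters in a short window, given as a description.

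By role, 9 genes were listed for work on RNA or the ribosome, and 8 of them reached the read minimum, all but Zfp593. After LPS 2 rose, 2 fell and 4 were not called, with a median log2 fold change of 0.11. Zfp598, a ubiquitin ligase that recognises collided ribosomes, rose from 31.0 and 35.3 CPM to 77.2 and 78.8 CPM, a log2 fold change of 1.24 ± 0.14 (SE, edgeR, adjusted p = 0.000328). After IL-4 then LPS it stood at 111.6 and 93.6 CPM, above both LPS libraries. Zfp207, which guards the attachment of chromosomes to the spindle, had a log2 fold change of 0.58 ± 0.13, but of -0.02 with library-size scaling. Zfp638, a nuclear RNA-binding protein that also silences unintegrated retroviral DNA, had -0.52 ± 0.13, and Zfp326, a splicing regulator, -0.73 ± 0.23. The call of Zfp207 was lost without control replicate 1 or LPS replicate 3 and with both other scalings, that of Zfp638 without replicate 1 of either group, and that of Zfp326 without any 1 of the 4 libraries compared and with DESeq2. Zfp622 (0.44), Zfp346 (0.39), Zfp106 (-0.17) and Zfp830 (-0.28) were not called.

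Of 20 genes listed for chromatin and general transcription, 16 were members, and Zfp532, Zfp827, Zfp521 and Zfp423 lay below the minimum. 3 rose after LPS, 2 fell and 11 were not called, with a median of 0.13. Beside Zfp281 the higher genes were Zfp143, an activator bound at many housekeeping promoters, from 12.5 and 13.1 CPM to 23.2 and 25.5 CPM, and Zfp131, a BTB-domain protein, from 28.1 and 22.9 CPM to 33.4 and 44.7 CPM. The log2 fold changes were 0.93 ± 0.20 and 0.61 ± 0.18. Zfp143 was not called without control replicate 1 or with library-size scaling (edgeR, adjusted p up to 0.152). Zfp131 was not called without either control library, LPS replicate 3 or either IL-4 library, nor with either other scaling or with only the groups compared in the fit (adjusted p up to 0.988). Beside Zfp652 the lower gene was Zfp362, which fell from 21.1 and 20.8 CPM to 7.83 and 8.28 CPM, by 1.38 on the log2 scale. Its close relative Zfp384, a nuclear matrix factor, had a log2 fold change of 0.06 ± 0.14. Zfp592 (0.17) and Zfp687 (0.38), subunits of a complex with Zmynd8, were not called, whereas Zmynd8 itself fell by 2.14, from a mean of 103.4 to 23.4 CPM. Zfp410, known as a dedicated activator of Chd4, had 0.14 ± 0.17 and Chd4 0.13 ± 0.13, neither called. The others not called were Zfp148 (-0.07), Zfp609 (-0.14), Zfp644 (-0.35), Zfp335 (0.13), Zfp217 (-0.51), Zfp516 (0.13) and Zfp462 (0.30).

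All 5 genes listed for ubiquitin, SUMO or signalling were members. Zfp395, described above, was the 1 called. Zfp91, a ubiquitin ligase of the non-canonical NF-kB pathway, had a log2 fold change of -0.08 ± 0.12 at 10626 reads, Zfp451, a SUMO ligase, -0.23 ± 0.30, Zfp746, a parkin substrate, -0.11 ± 0.15, and Zfp341, an activator of Stat3 expression, 0.13 ± 0.50 at 212 reads. Of 8 KRAB genes listed for repression of retroelements or imprinted genes, 6 were members, and Zfp57 and Zfp708 lay below the minimum. After LPS 3 fell and 3 were not called, with a median of -0.35. Zfp809, which brings Trim28 to murine leukaemia virus proviruses, fell from 13.2 and 11.2 CPM to 5.17 and 5.24 CPM (log2 fold change -1.23 ± 0.23, edgeR, adjusted p = 0.00419). Zfp932, a repressor of endogenous retroviruses, had -1.43 ± 0.42 and Zfp445, a protector of imprints, -0.43 ± 0.12, and both calls were lost without any 1 of the 4 libraries compared, that of Zfp445 also with DESeq2. Zfp568, which represses a placental transcript of Igf2, had -0.07 ± 0.23, Zfp429 0.53 ± 0.26 and Zfp738 -0.28 ± 0.22.

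**Figure D3:**
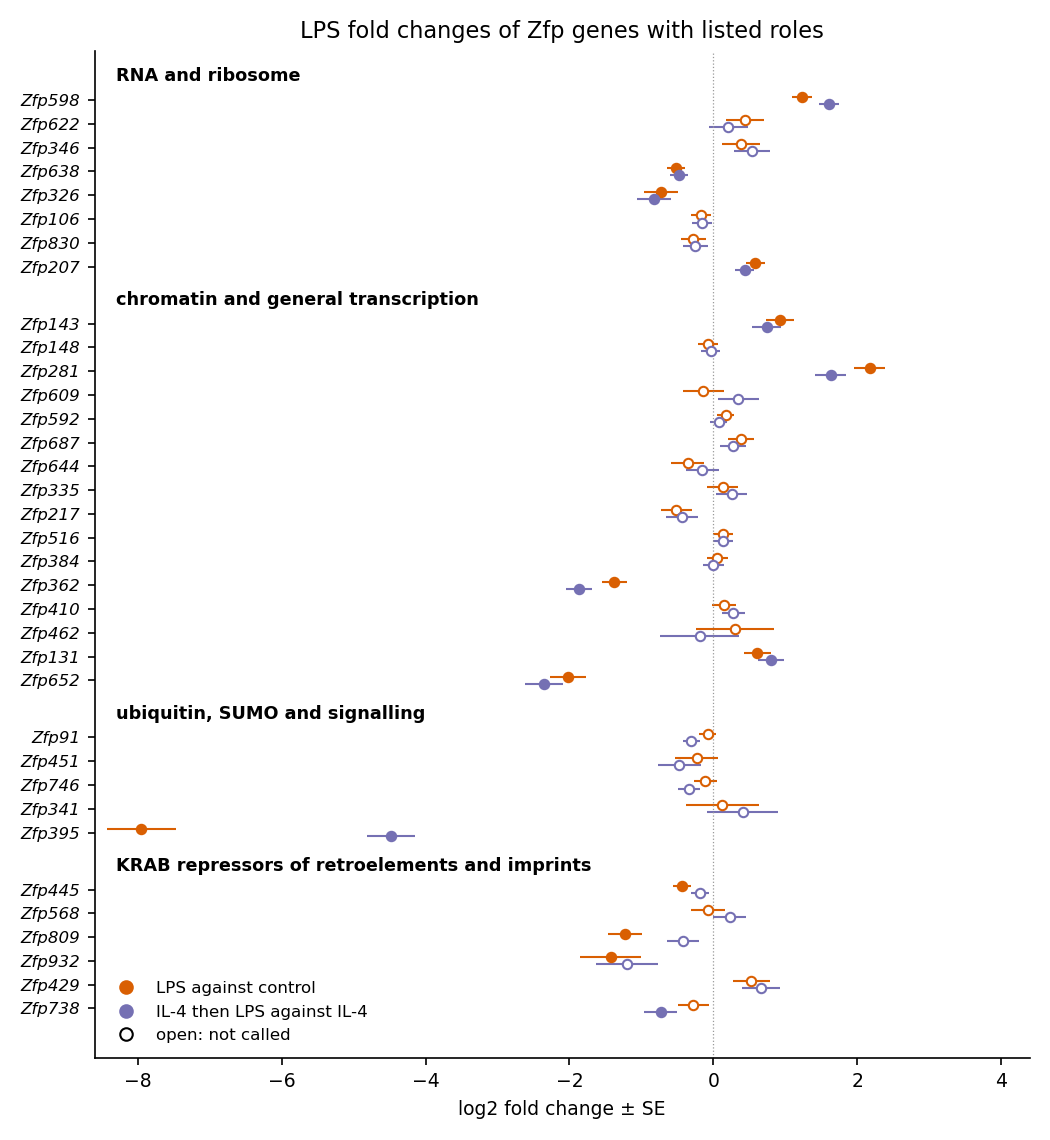
Log2 fold change with its SE of the Zfp genes in 4 role lists, after LPS in cells without IL-4 (orange) and after IL-4 (purple), with filled points for genes called at an adjusted p under 0.05. Zfp395, Zfp652 and Zfp362 lie far to the left in both comparisons, Zfp281 and Zfp598 to the right, and most other genes lie close to 0.

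Coding sequences of GENCODE M21 were translated to class the proteins. 213 of the 217 held at least 1 C2H2 pattern, with a median of 10 and at most 37. 103 of these also held a KRAB pattern and had a median of 12 C2H2 patterns, against 8 in those without it. The 4 without a C2H2 pattern were Zfp703, Zfp330, Zfp503 and Zfp839. The pattern is a stand-in for the domain: of the 6 genes on the list of KRAB repressors it was found in 5, and not in Zfp445. Other genes with the domain may be missed in the same way, so the class counts are approximate. The KRAB genes were lower in level, with a median of 1.6 RPKM against 2.95 without the pattern.

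After LPS 8 of the 103 KRAB genes were higher and 24 lower (7.77% and 23.3%), with a median log2 fold change of -0.50. Of the 110 C2H2 genes without the pattern 18 were higher and 22 lower (16.4% and 20.0%), with a median of -0.15. Of all genes tested 21.8% were called higher and 18.6% lower. The lower shares of both classes thus lay near that of all genes, and the higher shares lay below it. The share of KRAB genes in the reads of all 217 was 24.6% to 25.7% in control and 18.4% to 19.5% after LPS. It was 23.7% to 24.9% after IL-4 and 19.2% to 20.9% after IL-4 then LPS, so libraries with and without LPS did not overlap. This share also falls when genes without the pattern rise, such as Zfp800 (log2 fold change 3.92), so it does not describe the KRAB genes alone. Read depth moved with the class, at a median of 514 reads for KRAB genes and 1222 for the others. Split into 3 equal bands by reads, the medians of KRAB and other genes were -0.77 and -0.46 in the band with the fewest reads, -0.34 and -0.35 in the middle and -0.04 and -0.07 in the band with the most. The low band held 51 of the KRAB genes and the high band 11. The medians of the classes thus differed in the poorly read genes and lay close together in the other bands, and no difference was tested. Over all 217, the median was -0.72 in the low band, with 5 higher and 14 lower, and -0.03 in the high band, with 16 higher and 13 lower. The bands were cut on reads summed over all groups, those with LPS among them. Genes that fell after LPS thus tended towards lower bands and genes that rose towards higher ones. Medians of all genes by band are not given here.

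The partners of KRAB proteins were read from a list of 20 genes. After LPS 3 rose and 10 fell, with a median of -0.51. Trim28 itself, the shared corepressor, was not called, with a log2 fold change of 0.32 ± 0.15 and means of 126.5 CPM in control and 157.8 CPM after LPS. Setdb1 fell from a mean of 53.6 to 29.0 CPM (log2 fold change -0.88 ± 0.14, edgeR, adjusted p = 0.00159) and its stabilising partner Atf7ip from 44.0 to 21.1 CPM. The heterochromatin proteins Cbx3 and Cbx5 fell by 2.0 and 1.54, whereas Cbx1 had 0.28 ± 0.18. The maintenance DNA methyltransferase Dnmt1 fell from 154.4 to 31.2 CPM, its recruiter Uhrf1 from 21.0 to 5.63 CPM, and Dnmt3a from 336.2 to 149.4 CPM. The remodeller Chd3 and Mphosph8, a reader of the HUSH silencing complex, fell by 0.62 and 0.63. The calls of Cbx5, Chd3 and Mphosph8 were each lost without LPS replicate 3, and those of Cbx5 and Mphosph8 also without control replicate 1 (edgeR, adjusted p up to 0.0891); that of Mphosph8 was also lost without LPS replicate 1. Those that rose were Hdac1 by 1.22, Pphln1 by 0.95 and Morc3 by 1.48 on the log2 scale.

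**Figure D4:**
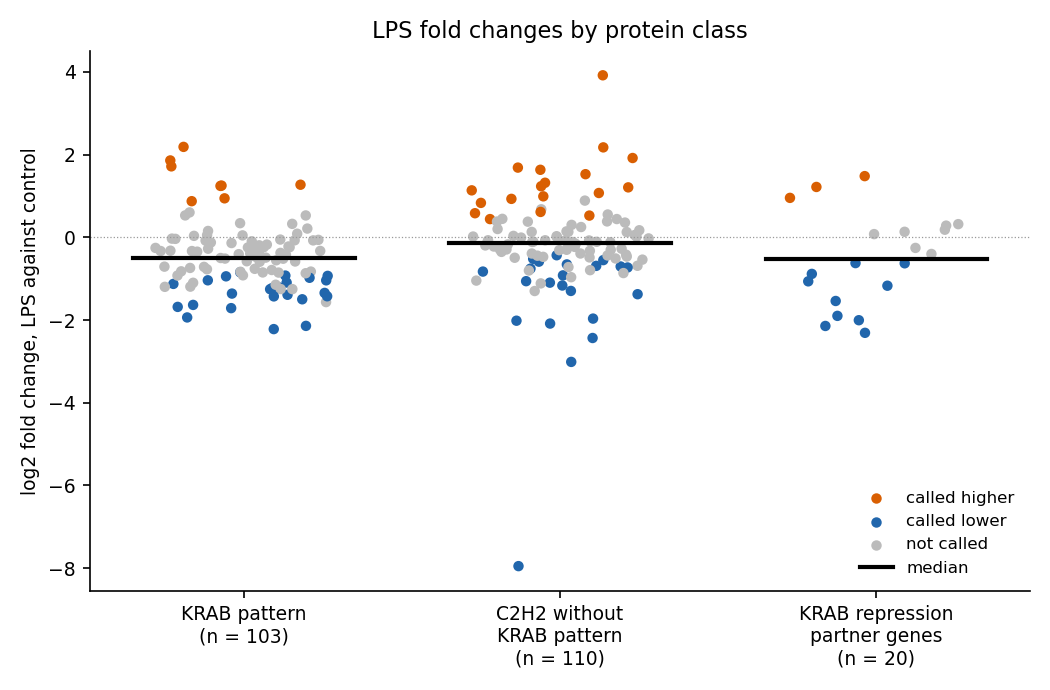
Log2 fold change after LPS of each Zfp gene with a KRAB pattern, each C2H2 gene without it, and each gene of the KRAB partner list, with bars at the medians of -0.50, -0.15 and -0.51. Called genes are coloured, and the lowest point is Zfp395.

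On the genome the members were unevenly spread, with 53 on chromosome 7, 30 on chromosome 17 and 15 each on chromosomes 8 and 13. Grouping members less than 500 kb apart gave 20 clusters of 3 or more, which held 112 of the 217. After LPS 13 of these were higher and 20 lower (11.6% and 17.9%), with a median of -0.34. Of the 105 outside the clusters 13 were higher and 26 lower (12.4% and 24.8%), with a median of -0.29. Of all genes tested 21.8% were called higher and 18.6% lower. The largest cluster, on chromosome 17 from 21008903 to 23564238 (mm10), held 17 members, 15 of them with a KRAB pattern, and its values ran from -2.22 for Zfp760 to 1.25 for Zfp945. A cluster of 8 on chromosome 6, from 47835661 to 48623227, ran from -2.43 for Zfp398 to 1.21 for Zfp212, and a cluster of 6 on chromosome 7, from 12478293 to 12985714, from -1.63 for Zfp606 to 2.19 for Zfp324. The highest median, 1.27, was that of 3 KRAB genes on chromosome 7, from 43296197 to 43593235, in which Zfp658 and Zfp719 were called and Zfp715, at -0.48, was not. The lowest median, -1.23, was that of Zfp653, Zfp809 and Zfp810 on chromosome 9, from 22055411 to 22307648, with 2 called lower. Among clusters of 5 or more members the lowest median was -1.04, in a cluster on chromosome 7 from 27731389 to 28014115. It holds Zfp60, Zfp626, Zfp59, Zfp974 and Zfp850, with 2 called lower. These genes and clusters outside the named lists were picked after their values were seen.

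IL-4 then LPS against IL-4 repeated the LPS contrast in cells that had first received IL-4, with no library in common with LPS against control. Here 28 of the 217 were higher and 44 lower (12.9% and 20.3%), beside 20.7% and 18.6% of all genes tested and 22.5% and 20.7% of the protein-coding genes with at least 200 reads. The median was -0.28, against -0.04 for all genes, and 15 of the higher and 28 of the lower genes reached a fold of at least 2. With library size alone the counts were 11 and 112, with all genes at a median of -0.56, and with upper-quartile factors 16 and 72. Without IL-4 replicate 1 the median was -0.22, beside -0.01 for all genes, and without IL-4 replicate 3 -0.25, beside -0.02. Without IL-4 then LPS replicate 1 it was -0.29, beside -0.06, and without its replicate 3 -0.25, beside -0.05. Each of these fits leaves 1 library in a group, and fewer members and a smaller share of all genes were called in each direction.

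Of the genes called higher, 23 were called higher in both comparisons, which is 88.5% of those in LPS against control and 82.1% of those after IL-4. Of those called lower, 31 were shared, 67.4% and 70.5%. None was called in opposite directions, 18 were called in LPS against control and not in the other, and 18 the other way round. Across the 217 genes the fold changes of both comparisons correlated with Pearson's r = 0.897 and Spearman's rho = 0.848, against r = 0.927 over all genes tested, and 190 of 217 had the same sign. These points are genes, which are not independent replicates, and both comparisons share the gene's read depth and the scaling. The shares of shared calls and of equal signs over all genes tested are not given here. The counts are therefore not read as particular to the Zfp genes.

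The largest increases after IL-4 were again led by Zfp800, with a log2 fold change of 3.35 ± 0.16, a 10.2-fold rise (edgeR, adjusted p = 1.25e-05), and Zfp324, with 2.10 ± 0.23. Zfp719, a KRAB gene, rose from 2.41 and 4.89 CPM after IL-4 to 14.0 and 12.6 CPM after IL-4 then LPS. Zfp319 rose by 1.68, Zfp658 by 1.67, Zfp456 by 1.65, Zfp281 by 1.64, Zfp263 by 1.62, Zfp598 by 1.61 and Zfp697 by 1.41. 65.5% of the 50-base stretches of Zfp456 protein-coding transcripts occur in another gene, so its count is uncertain. Calls were lost for Zfp456 without IL-4 replicate 1 (edgeR, adjusted p = 0.054), for Zfp658 without replicate 1 of either group (up to 0.107), and for Zfp697 without either IL-4 library or IL-4 then LPS replicate 1 and with both other scalings (up to 0.197).

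Among the decreases, Zfp395 fell by 4.48 ± 0.33, from 449 reads to 13 (edgeR, adjusted p = 4.5e-05). Zfp760 fell by 3.27, Zfp704 by 2.85, Zfp810 by 2.83, Zfp652 by 2.35, Zfp398 by 2.21, Zfp41 by 2.06, Zfp608 by 1.88, Zfp362 by 1.86 and Zfp579 by 1.78. Of these, Zfp608 and Zfp579 were not called in LPS against control. Zfp41 and Zfp608 lost their call without IL-4 replicate 1 or IL-4 then LPS replicate 3 (edgeR, adjusted p up to 0.0828), and Zfp579 without any 1 of the control, IL-4 or IL-4 then LPS libraries (up to 0.141). Among the role lists, the calls in this comparison were those of LPS against control with 4 exceptions, each in the list of KRAB repressors. Zfp445, Zfp809 and Zfp932 were not called, with -0.19 ± 0.12, -0.43 ± 0.22 and -1.20 ± 0.43, and Zfp738 was called lower, at -0.73 ± 0.23, a call lost with DESeq2 and without any 1 of the control, IL-4 or IL-4 then LPS libraries. The calls of Zfp143, Zfp131, Zfp207, Zfp638 and Zfp326 were each lost without IL-4 replicate 1, and each also in other settings. That of Zfp207 was also lost with both other scalings, with no filter on low counts and with only the groups compared. Of the 20 partner genes 3 rose and 11 fell, with a median of -0.55. The calls of Cbx3, Cbx5, Chd3, Mphosph8 and Morc2a were lost without IL-4 replicate 1, and each also in other settings. That of Morc2a (edgeR, adjusted p = 0.0455) was also lost with DESeq2, with no filter, with only the groups compared, and without any other 1 library. By class 9 KRAB genes were higher and 22 lower (8.74% and 21.4%), and 19 and 21 of the C2H2 genes without the pattern (17.3% and 19.1%). Of all genes tested 20.7% were higher and 18.6% lower.

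**Figure D5:**
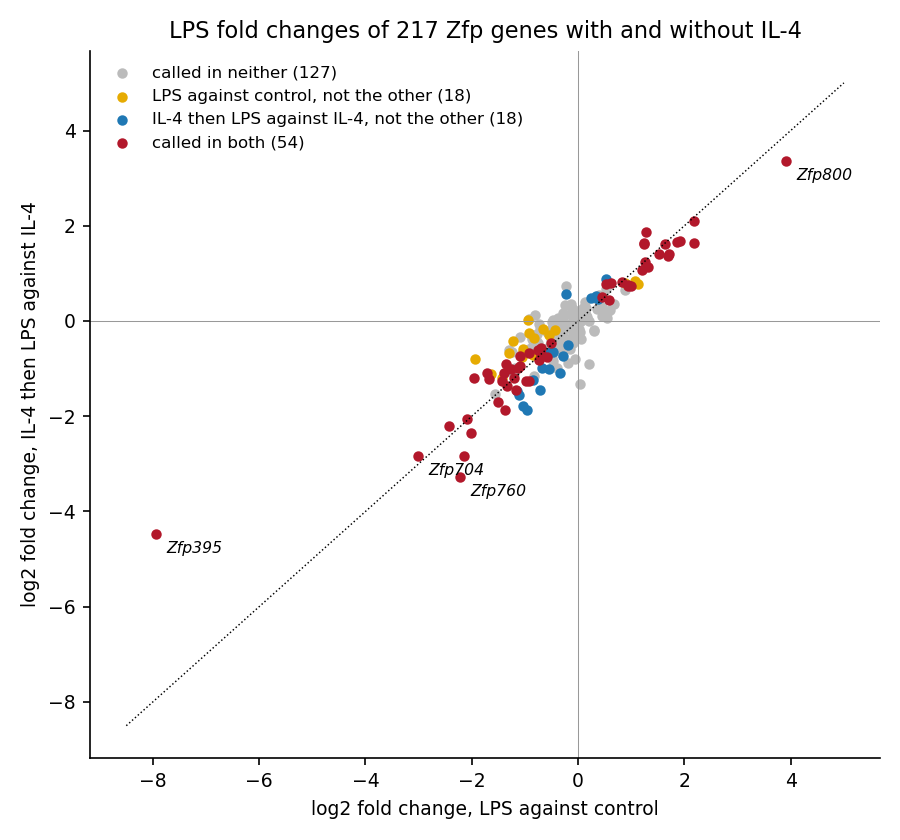
Log2 fold change after LPS in cells without IL-4 (x axis) and with prior IL-4 (y axis) for the 217 Zfp genes, coloured by the comparisons in which each was called, with the dotted line of equal values. 54 genes were called in both, each in the same direction, and Zfp395 lies above the line at fitted values of -7.95, from 1 read in the LPS libraries, and -4.48.

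IL-4 against control asked which of the genes answered the cytokine alone. None of the 217 was called (edgeR's quasi-likelihood test, adjusted p under 0.05), beside 0.0654% of all genes tested, and 5 had an unadjusted p under 0.05, 2.3% beside 7.29% of all genes. DESeq2 called none and gave 1 with an unadjusted p under 0.05. The log2 fold changes ran from -0.85 to 0.88 with a median of -0.14, beside 0.0 for all genes tested, and 160 of the 217 were negative, 73.7% beside 50% of all genes. With the replicate number as a term in the fit, Zfp263 was the 1 member called, with a log2 fold change of -0.48 ± 0.10 (edgeR, adjusted p = 0.0452), beside 0.858% of all genes called lower. It was at 54.3 and 71.6 CPM in control and at 38.8 and 51.7 CPM after IL-4, lower in both libraries 1 and 3, and without that term its adjusted p was 0.765. Zfp263 is named here for this call. The smallest p-values were those of Zfp706, Zfp397 and Zfp866. Zfp706 was at 87.0 and 82.6 CPM in control and 116.3 and 101.3 CPM after IL-4 (log2 fold change 0.36 ± 0.12, edgeR, adjusted p = 0.53). Zfp397 was at 32.8 and 28.4 CPM in control and at 20.6 and 21.4 CPM after IL-4. Zfp866 was at 16.7 and 17.0 CPM in control and at 11.6 and 12.7 CPM after IL-4, and it overlaps Atp13a1, which held 8173 reads. The groups of these 3 genes did not overlap, as in 43.3% of the 217 and 38.6% of all genes tested. Their differences did not pass the correction.

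IL-4 then LPS against LPS asked whether earlier IL-4 altered the levels under LPS. None of the 217 was called in the same test, again beside 0.0654% of all genes tested, and 18 had an unadjusted p under 0.05, 8.29% beside 8.5% of all genes. DESeq2 called none, with 13 at an unadjusted p under 0.05. Zfp395 held 13 reads after IL-4 then LPS and 1 after LPS alone, a ratio of 12.8 with a 95% counting interval of 1.93 to 545.5, and its adjusted p was 0.249 (edgeR). Zfp738 was at 12.7 and 10.9 CPM after LPS and at 7.43 and 5.96 CPM after IL-4 then LPS (edgeR, adjusted p = 0.369). Zfp281 was at 136.2 and 93.2 CPM after LPS and at 76.9 and 61.4 CPM after IL-4 then LPS, a log2 fold change of -0.73 ± 0.21 (edgeR, adjusted p = 0.372). With no filter on low counts, Zfp281 and Zfp395 were called (edgeR, adjusted p = 0.0148 and 0.0307), over more genes tested. Of all genes in that fit 0.816% were called higher and 1.07% lower. With the replicate number as a term Zfp263 was again the 1 member called, at -0.49 ± 0.10 (edgeR, adjusted p = 0.0392), beside 1.22% of all genes called lower. It was at 159.3 and 231.2 CPM after LPS and at 114.6 and 163.2 CPM after IL-4 then LPS, groups that overlapped, and without that term its adjusted p was 0.661. Zfp800 was at 294.8 and 303.2 CPM after LPS and at 216.2 and 205.7 CPM after IL-4 then LPS, and was not called. Its groups did not overlap, as in 29.5% of the 217 and 36.4% of all genes tested.

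A change of the LPS response by earlier IL-4, tested as the interaction, was called for none of the 217 genes and for 0% of all genes tested. 7 of the 217 had an unadjusted p under 0.05 in edgeR, 3.23% beside 2.63% of all genes, and 2 in DESeq2, which called none. The smallest p-values were those of Zfp395 (interaction 3.47 ± 0.80, adjusted p = 1.0, edgeR), Zfp422 (0.78 ± 0.25) and Zfp472 (1.14 ± 0.40). Zfp422 was at 16.2 and 14.2 CPM after LPS and at 20.7 and 25.3 CPM after IL-4 then LPS, and Zfp472 at 2.10 and 2.62 CPM and at 4.22 and 3.89 CPM. The fitted value of Zfp395 rests on 1 read in the LPS libraries: without LPS replicate 1 it was 6.12 and without LPS replicate 3 it was 2.59.

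Libraries 1 and 3 of a group differed by 2-fold or more in 0 of the Zfp genes in control, 9 after LPS, 2 after IL-4 and 10 after IL-4 then LPS, 18 genes in all. The median size of the difference was 0.18, 0.29, 0.20 and 0.30 on the log2 scale, computed with 0.5 added to the CPM, and the widest was 1.55, for Zfp462 after IL-4 then LPS. 37 of the 217 were higher in library 1 than in library 3 in all 4 groups and 24 were lower, and none by 1.5-fold or more in each of the 4. For these differences between libraries, shares over all genes tested are not given here. Of the pair on the X chromosome, Zfp275 had 10.1 and 21.0 CPM in LPS libraries 1 and 3, against 33.7 and 36.0 CPM in control, and fell by 1.17 ± 0.33 after LPS (edgeR, adjusted p = 0.0233), a call lost without either control library or LPS replicate 1. Zfp182 had 9.85 and 7.01 CPM in control and 6.57 and 3.73 CPM after LPS and was not called. Counts of near-identical or overlapping genes cannot be separated with certainty. 21 of the 217 shared at least 20% of the 50-base stretches of their protein-coding transcripts with another gene. 67 shared none, and 32 overlapped a gene with at least 10 reads. In the 196 genes below 20% sharing, 25 were higher and 41 lower after LPS, with a median of -0.33.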

How the data were processed

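The deposited table holds raw counts, whole reads per gene that the authors made; the mm10 genome and the tools HISAT2, StringTie and HTSeq are named per the submitters' processing notes, while versions, strandedness and the treatment of multiply mapped reads are not given in the sources used here. The table also has 6 count columns of no labelled sample, which were left out. Genes were kept by filterByExpr of edgeR 4.0.16, leaving 12234, scaled by TMM and tested with edgeR's quasi-likelihood test over all 8 libraries with 1 mean per group (4 residual and 3.78 prior degrees of freedom), adjusted by Benjamini-Hochberg; DESeq2 1.42.0 and other settings were alternatives. The SE is the log2 fold change divided by the root of the F statistic. Levels are CPM with TMM. Libraries held 7924932 to 9431852 counts, and intervals cover counting error. A table of protein sequences was planned for classing proteins; GENCODE M21 coding sequences were used instead, and all 217 identifiers matched. The members, role lists, partner list and marker lists were chosen with earlier results of these data known. Named were the 10 largest called changes per direction in each LPS comparison, the 3 smallest p-values in the others, the 5 highest levels per length, genes next to the minimum, role-list and X-linked genes. The results of 2 marker lists are not reported here.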

Additional observations from a re-analysis of the deposited data

How the results depend on the processing

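Counts of members called higher or lower after LPS were 26 and 46, and after IL-4 then LPS against IL-4 28 and 44. Library-size scaling gave 10 and 139, and 11 and 112, and upper-quartile scaling 18 and 86, and 16 and 72. The 46 and 44 lower members were among those called lower under both scalings. Both scalings moved nearly all genes down, so this could hardly be otherwise. With the replicate number as a term (replicate block) the counts were 31 and 70, and 31 and 62, and Zfp263 was the 1 member called in IL-4 against control (adjusted p = 0.0452) and the 1 called in IL-4 then LPS against LPS (adjusted p = 0.0392). Deviations from the group means correlated at 0.343 to 0.524 between libraries of the same number, and each number held cells of a single sex; no label says whether it marks an animal. DESeq2 gave 23 and 39, and 25 and 36, no filter on low counts 23 and 61, and 22 and 50, and the fit of only the groups compared 20 and 39, and 23 and 36. With no filter 2 members were called in IL-4 then LPS against LPS, beside 0.816% of all genes higher and 1.07% lower. Leaving out each library in turn gave 14 to 24 higher and 28 to 49 lower members after LPS, and 14 to 26 and 19 to 44 after IL-4 then LPS; in both IL-4 comparisons and the interaction it gave 0 throughout. Of 85 called values of single genes, members and partners, 52 kept their direction and call under every alternative run; over all alternatives 1065 values were unchanged in both, 123 lost the call, and Zfp207 changed sign with library-size scaling, to -0.021 after LPS and -0.087 after IL-4 then LPS. The causes were not tested. Of the 73 members with the fewest reads 19 were called after LPS, with a median log2 fold change of -0.72. Of the 72 with the most reads 29 were called, with a median of -0.03. The reads were summed over all groups, those with LPS among them, so this split depends partly on the fold change itself. The part of depth was not tested.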
